A study of Mus musculus with 6 samples.

Results

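The myeloid C-type lectin receptors described here are Clec4e, Clec4d, Clec4n, Clec7a, Clec9a, Clec5a and Clec4a2. They were taken by name, and all 7 were found among the 12969 genes of the table. The data are RNA-seq of infarcted heart tissue from male mice about 12 weeks old, in 6 libraries, taken 4 days after the left anterior coronary artery had been tied off for good with a suture. The 3 samples of one group were IRF3-/-, lacking the transcription factor that starts type I interferon production (called Irf3KO here). The other 3 were wild type (WT) on C57BL/6, and for Irf3KO the sources used here name no strain. All hearts were infarcted, so the comparison is of Irf3KO with WT infarcts and has no uninjured reference. A difference of strain, if there was one, cannot be told apart from that of genotype.

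C-type lectin receptors are surface proteins of macrophages, monocytes, neutrophils and dendritic cells. They recognise sugars and lipids of microbes and also products of dying cells, which makes an infarct rich in possible ligands. Clec4e (Mincle), Clec4d (MCL) and Clec4n (Dectin-2) signal through the adaptor Fcer1g, and Clec5a (MDL-1) signals through Tyrobp. Clec7a (Dectin-1) and Clec9a (DNGR-1) carry a signalling motif in their own tails. These routes meet at the kinase Syk, and for several of the receptors the adaptor Card9 then leads to NF-kB. Clec4a2 (DCIR) carries an inhibitory motif that recruits the phosphatases Ptpn6 and Ptpn11.

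All 7 genes lie on mouse chromosome 6. Their 250 bases before the transcription start were taken from RefSeq on GRCm38.p6, a later build than the NCBIM37 named in the submitters' processing notes, and 6 of the 7 matched. Clec4n was not matched and is named only. The stretches of 4 receptors are shown, read 5′ to 3′ on each gene's own strand. They are those of Clec5a and Clec4a2, whose levels were most alike across libraries, of Clec4e, whose level varied most, and of Clec9a, the 1 receptor whose groups did not overlap. Capitals mark matches, on either strand, to the PU.1 motif GAGGAAG or the C/EBP motif TTGCNNAA. The stretches are Clec5a at chr6:40585806-40586055 (minus strand), Clec4a2 at chr6:123122440-123122689 (plus strand), Clec4e at chr6:123289872-123290121 (minus strand) and Clec9a at chr6:129408612-129408861 (plus strand).
Clec5a: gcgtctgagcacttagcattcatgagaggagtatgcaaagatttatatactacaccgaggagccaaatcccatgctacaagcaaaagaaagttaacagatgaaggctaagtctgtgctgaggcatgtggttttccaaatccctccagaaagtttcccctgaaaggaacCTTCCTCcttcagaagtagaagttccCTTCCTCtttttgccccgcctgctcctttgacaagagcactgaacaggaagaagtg
Clec4a2: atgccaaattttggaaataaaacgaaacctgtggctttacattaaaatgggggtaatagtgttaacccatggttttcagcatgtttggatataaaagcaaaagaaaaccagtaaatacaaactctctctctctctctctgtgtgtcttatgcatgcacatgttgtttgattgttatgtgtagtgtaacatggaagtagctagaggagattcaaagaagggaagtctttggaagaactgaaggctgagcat
Clec4e: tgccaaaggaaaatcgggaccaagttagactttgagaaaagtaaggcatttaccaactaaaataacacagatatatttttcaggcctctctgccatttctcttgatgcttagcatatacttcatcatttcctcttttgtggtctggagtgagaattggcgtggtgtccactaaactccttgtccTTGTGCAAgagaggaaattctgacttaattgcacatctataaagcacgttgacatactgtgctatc
Clec9a: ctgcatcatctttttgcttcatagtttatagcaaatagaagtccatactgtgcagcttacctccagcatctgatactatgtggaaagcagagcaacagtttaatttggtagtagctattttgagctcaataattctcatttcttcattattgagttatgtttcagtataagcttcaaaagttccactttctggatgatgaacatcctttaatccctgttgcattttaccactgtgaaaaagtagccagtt

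PU.1 is a transcription factor of myeloid cells, and its motif was found in 2 of the 6 stretches. Clec5a held it at 82 and 56 bases before the start, and Clec4d, whose stretch is not shown, held it at 241 bases before the start. Over 27025 mouse promoters of the same length 10.4% held it. The C/EBP motif was found in Clec4e alone, at 66 bases before the start, and 9.55% of the promoters held it. The interferon-stimulated response element (GAAA, any 2 bases, then GAAA), a form of the site that Irf3 and its relatives bind, was in none of the 6 stretches and in 3.04% of promoters. The NF-kB motif (GGGA, any base, then TTTCC, in 0.337% of promoters) and the AP-1 motif TGANTCA (6.87%) had no match in the 6 either. These are matches of letters in a short window and were not compared with binding data.

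The depth that the RPKM values imply, in 1e6 reads, was 14.8 to 20.8 in 5 libraries and 61.9 in Irf3KO replicate 3. Irf3KO replicate 2 stood apart. On average it correlated at 0.907 with the remaining libraries, while each of those averaged 0.941 to 0.966, and its median-of-ratios factor was 0.810, against 1.015 to 1.075. Markers of cardiomyocytes were present in every library, at a summed 6687 to 20373 RPKM over 10 genes. The 8 interferon-stimulated genes used as a check all fell in Irf3KO, with a median log2 fold change of -2.41 (limma adjusted p = 0.00227 for Isg15, a ubiquitin-like antiviral protein, 0.0029 for Ifit3 and 0.00367 for Irf7). Without WT replicate 3 their directions held and 3 of the 8 were called.

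None of the 7 receptors passed the test between genotypes. The test was limma on log2(RPKM + 1), where RPKM is reads per kilobase of gene, scaled to sequencing depth, with p-values adjusted over the 12913 genes whose mean reached 1 RPKM and a threshold of 0.05. All 7 receptors passed that filter, and 0 were higher and 0 lower, with 1 unadjusted p under 0.05. Across all genes 0.147% were called higher and 0.356% lower, and 1085 of the 12913 had an unadjusted p under 0.05. The median log2 fold change of the receptors was 0.14, with 5 above 0 and 2 below, beside a median of -0.09 over all genes. Scaling the libraries by median-of-ratios factors moved the median of all genes to 0.02. In bulk tissue a difference in the number of cells of a type and a difference in RNA per cell cannot be told apart. The labels number the samples of a group without further detail on the animals, so a p-value covers only the spread among these samples, which may be technical.

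The levels per length had nearly the same order in every library. Clec4n and Clec4d were the most abundant, and Clec4n was above Clec4d in 3 of 6 libraries. Clec7a followed, below Clec4d in 6 of 6, then Clec4a2, below Clec7a in 6 of 6. Clec5a and Clec4e came next, with Clec5a the higher in 4 of 6. Clec9a was last, below Clec4e in 5 of 6 libraries. The pairs Clec4n with Clec4d and Clec5a with Clec4e therefore had no fixed order.

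**Figure D1:**
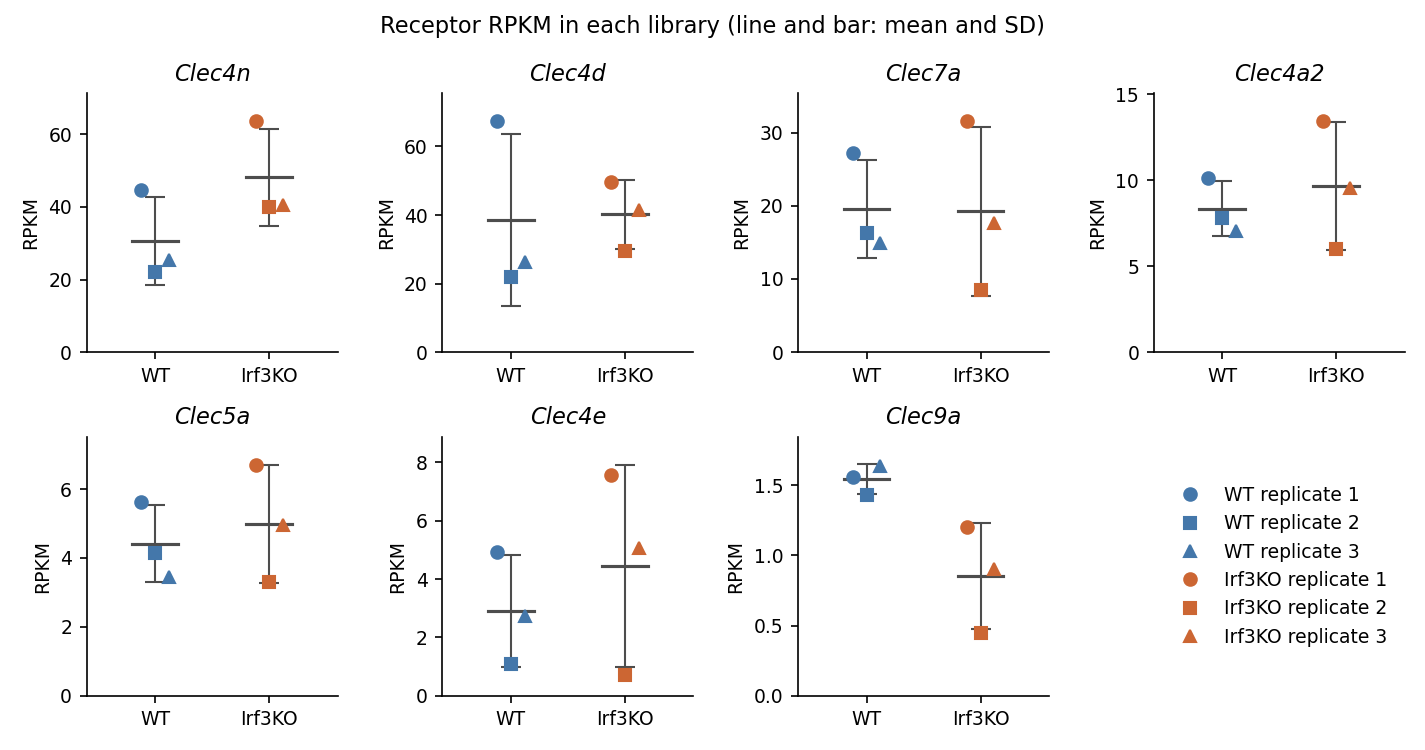
RPKM of each receptor in the 3 WT and 3 Irf3KO libraries, 1 panel per gene with its own linear axis from 0. Symbols mark replicates, horizontal lines the mean and bars the SD (n = 3). Clec9a is the 1 receptor whose groups do not overlap, and Irf3KO replicate 2 (orange square) is the lowest of its group in all 7 panels.

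Of the receptors coupled to Fcer1g, Clec4n binds mannose-rich fungal glycans. It stood at 63.60, 40.06 and 40.64 RPKM in Irf3KO replicates 1 to 3 and at 44.54, 22.16 and 25.27 RPKM in WT replicates 1 to 3. All 3 Irf3KO libraries were above WT replicates 2 and 3, while WT replicate 1 lay within the Irf3KO range. The log2 fold change was 0.67 ± 0.31 (SE, n = 3 per group), with a 95% interval from -0.04 to 1.37 (limma adjusted p = 0.556). Without Irf3KO replicate 2 it was 0.78 ± 0.33 (adjusted p = 0.634), and without WT replicate 1 it was 0.96 ± 0.26 (adjusted p = 0.461).

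Clec4d, which pairs with Clec4e on the cell surface and senses the same mycobacterial glycolipid, was spread more within the wild type than within Irf3KO. It stood at 49.73, 29.59 and 41.36 RPKM in Irf3KO and at 67.36, 21.86 and 26.33 RPKM in WT. The WT libraries covered a 3.08-fold range and enclosed all Irf3KO values. Its log2 fold change was 0.21 ± 0.41 (95% interval -0.73 to 1.14, limma adjusted p = 0.808), and it was 0.69 ± 0.26 without WT replicate 1 (adjusted p = 0.653) and 0.41 ± 0.44 without Irf3KO replicate 2 (adjusted p = 0.868).

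Clec4e, the sensor of mycobacterial cord factor and of the nuclear protein Sap130 released by dead cells, varied most of the 7. It stood at 7.58, 0.72 and 5.06 RPKM in Irf3KO and at 4.91, 1.08 and 2.73 RPKM in WT. Irf3KO replicates 1 and 3 were above every WT library and Irf3KO replicate 2 was below every WT library, a 10.5-fold range within the knockout. At about 65 reads the value of Irf3KO replicate 2 has a counting error of 12.4%, which is small beside that range. The log2 fold change was 0.32 ± 0.60 (95% interval -1.05 to 1.70, limma adjusted p = 0.799). Without Irf3KO replicate 2 it was 1.01 ± 0.41 (adjusted p = 0.619).

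Leaving out 1 library changed which groups overlapped. With all libraries no receptor was higher in every Irf3KO library than in every WT library, against 6.61% of all genes. Without Irf3KO replicate 2 this held for 1 receptor, Clec4e, against 10.9% of genes. Without WT replicate 1 it held for Clec4d and Clec4n, against 15.2% of genes. No receptor was called without Irf3KO replicate 2, where 0.75% of genes were. Weighting the libraries by their own scatter changed the calls. limma's array weights were 1.003, 0.1035 and 6.355 for Irf3KO replicates 1 to 3 and 0.4054, 4.402 and 0.8494 for WT replicates 1 to 3. The weighted fit therefore rested mostly on Irf3KO replicate 3 and WT replicate 2. With these weights 22.9% of all genes were called. Clec4e (1.35 ± 0.25), Clec4n (0.83 ± 0.17) and Clec4d (0.77 ± 0.19) were then called higher (limma adjusted p = 0.00498, 0.00827 and 0.0208) and Clec9a lower (-0.36 ± 0.09, adjusted p = 0.0247).

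Of the receptors with a motif of their own, Clec7a, which binds the beta-glucans of fungal walls, showed no direction. It stood at 31.56, 8.55 and 17.61 RPKM in Irf3KO and at 27.21, 16.34 and 14.97 RPKM in WT. Irf3KO held both the highest and the lowest value. The log2 fold change was -0.14 ± 0.43 (95% interval -1.13 to 0.84, limma adjusted p = 0.877), and without Irf3KO replicate 2 it was 0.31 ± 0.32 (adjusted p = 0.863).

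Clec9a, by which cross-presenting dendritic cells detect actin filaments exposed on dead cells, was the receptor with separate groups. It stood at 1.20, 0.45 and 0.90 RPKM in Irf3KO and at 1.56, 1.43 and 1.64 RPKM in WT. Every Irf3KO library lay below every WT library, which was so for 11.8% of all genes. The ratio of mean RPKM was 0.55, and the log2 fold change was -0.48 ± 0.19 (95% interval -0.92 to -0.04, limma adjusted p = 0.556). That scale understates changes of genes as low as this one. Its levels rest on about 27 to 186 reads a library, with counting errors of 7.3% to 19.2%. With 1 library left out in turn, its log2 fold change ran from -0.61 to -0.31 (adjusted p from 0.247 to 0.877). In the later annotation Clec9a overlaps Clec1b on the same strand, and how the submitters' counting treated shared stretches is not stated.

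Clec5a, which pairs with Tyrobp and marks activated monocytes, stood at 6.71, 3.30 and 4.96 RPKM in Irf3KO and at 5.64, 4.15 and 3.46 RPKM in WT. The inhibitory receptor Clec4a2 stood at 13.43, 5.98 and 9.55 RPKM in Irf3KO and at 10.12, 7.81 and 7.05 RPKM in WT. For both, Irf3KO replicate 1 was the highest library and Irf3KO replicate 2 the lowest, with WT between. Their log2 fold changes were 0.12 ± 0.26 and 0.14 ± 0.29 (95% intervals -0.48 to 0.73 and -0.51 to 0.80, limma adjusted p = 0.824 and 0.811). Without Irf3KO replicate 2 they were 0.34 ± 0.21 and 0.42 ± 0.20 (adjusted p = 0.769 and 0.708). Clec4a2 has close relatives beside it, and how the submitters' counting treated reads shared with them is not stated.

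**Figure D2:**
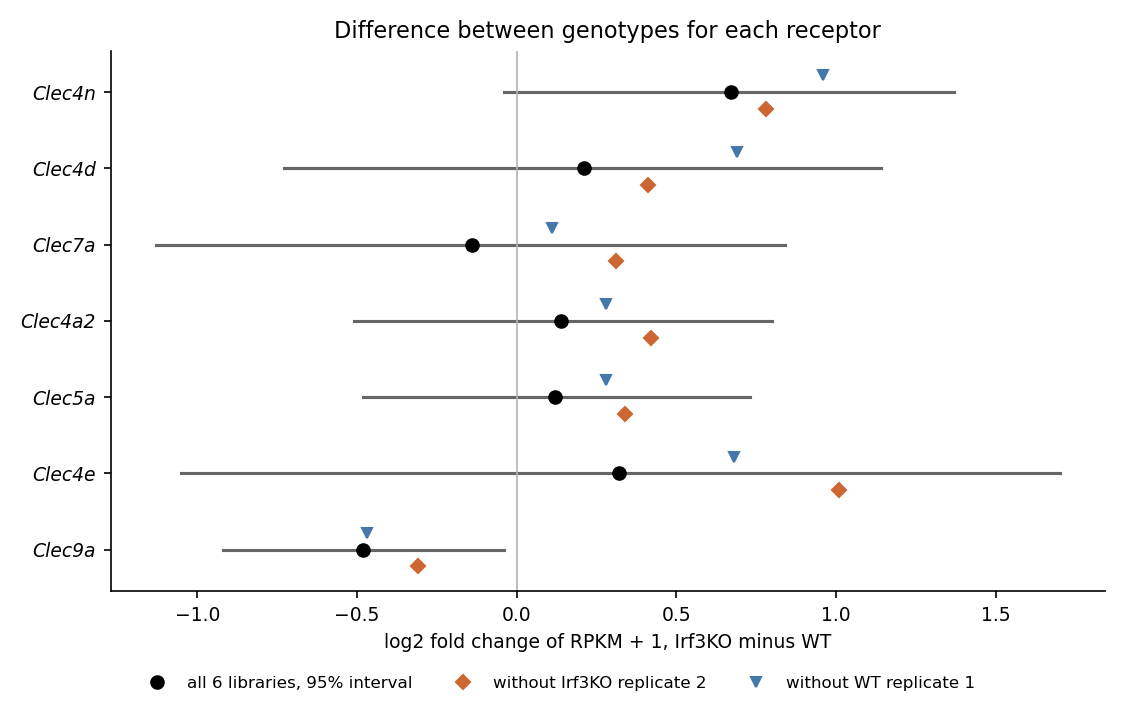
Log2 fold change of each receptor (Irf3KO minus WT, on RPKM + 1). Black points and lines are the estimate from all 6 libraries with its 95% interval, diamonds the estimate without Irf3KO replicate 2 and triangles that without WT replicate 1. The interval of Clec9a (-0.92 to -0.04) is the only one that lies on 1 side of 0, before any adjustment.

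Several receptors were high or low in the same libraries. Irf3KO replicate 1 was the highest library for 5 of the 7 and Irf3KO replicate 2 the lowest for 5 of the 7. Clec5a and Clec4a2 were most alike (Pearson r = 0.98 on log2(RPKM + 1) over the 6 libraries), followed by Clec7a with Clec4a2 (0.94) and Clec7a with Clec5a (0.93). Clec9a ran apart, with r from -0.31 against Clec4n to 0.62 against Clec7a. These are descriptions over 6 libraries that share depth and cell content as well as genotype.

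Over all tested genes outside the group, likeness was ranked by the same r. Clec4d was nearest to Pycard (0.994), the adaptor of inflammasomes, to the leukocyte adhesion ligand Icam1 (0.992) and to Ccdc109b (0.985). Clec4e was nearest to Rnf128 (0.990), to coagulation factor F10 (0.985) and to Stk24 (0.980). F10 showed the same low libraries, at 1.36 RPKM in Irf3KO replicate 2 and 1.71 RPKM in WT replicate 2 against 5.68 to 11.14 RPKM in the others. Clec9a was nearest to Gbp7 (0.995), an interferon-induced GTPase, then to Atf2 (0.993) and Rrm2b (0.992). Gbp7 stood at 5.48, 1.17 and 3.87 RPKM in Irf3KO and at 9.85, 9.40 and 10.79 RPKM in WT. Clec4n was nearest to Ccdc122 (0.984), Stx8 (0.983) and the gene model Gm9762 (0.974), Clec7a to Frg1 (0.999), 3110001I22Rik (0.995) and Aagab (0.995). Clec5a was nearest to Cdca7l (0.996), Emb (0.992) and Rps4x (0.991), and Clec4a2 to Gm5428 (0.991), Mctp1 (0.991) and Rps4x (0.988). With 6 libraries many genes reach such values.

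Markers of the cells that carry these receptors moved with the libraries. The median of 20 monocyte and macrophage markers, relative to its WT mean, was 0.14, -1.35 and -0.16 in Irf3KO replicates 1 to 3 and 0.45, -0.24 and -0.28 in WT replicates 1 to 3. Their summed level was 1433 to 5011 RPKM in Irf3KO and 2584 to 4727 RPKM in WT, and no marker was at 0. Of the 20, 16 had a log2 fold change below 0, with a median of -0.44, and the median was -0.02 without Irf3KO replicate 2. The 9 neutrophil markers in the table, of 13 listed, ranged from 66.7 to 86.0 RPKM summed in Irf3KO and from 43.4 to 120 RPKM in WT, and their median was highest in WT replicate 1, at 0.83. Of dendritic cell markers 8 of 13 were in the table, at 30.6 to 60.2 RPKM summed against 37.0 to 64.1 RPKM, none of them at 0. Flt3 and Xcr1, the latter a marker of the dendritic cells that carry Clec9a, were listed but not in the table. The part of cell content in the receptor values was not tested.

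In Irf3KO replicate 2 the receptors did not follow the macrophage median evenly. Clec7a and Clec4e were at -1.05 and -1.06 there relative to the WT mean, and Clec9a was at -0.81. Clec4a2 and Clec5a were at -0.40 and -0.31, Clec4d was at -0.19 and Clec4n was above the WT mean at 0.44. Among macrophage markers the values of that library were as uneven. Lyz2, macrophage lysozyme, was at 833.22 RPKM there against 1772.20 to 3825.58 RPKM elsewhere, while Cd68, a lysosomal glycoprotein, was at 234.46 RPKM, within the 154.46 to 425.87 RPKM of WT. Summed over all tested genes, RPKM was 666954 in Irf3KO replicate 2 and 329484 to 410733 in the other libraries. Clec4d and Clec4n are 1336 and 1420 bases long, and the other receptors 2270 (Clec7a) to 4965 (Clec4e). Clec5a, at 3840 bases, fell less there than Clec7a. The part of gene length was not tested.

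**Figure D3:**
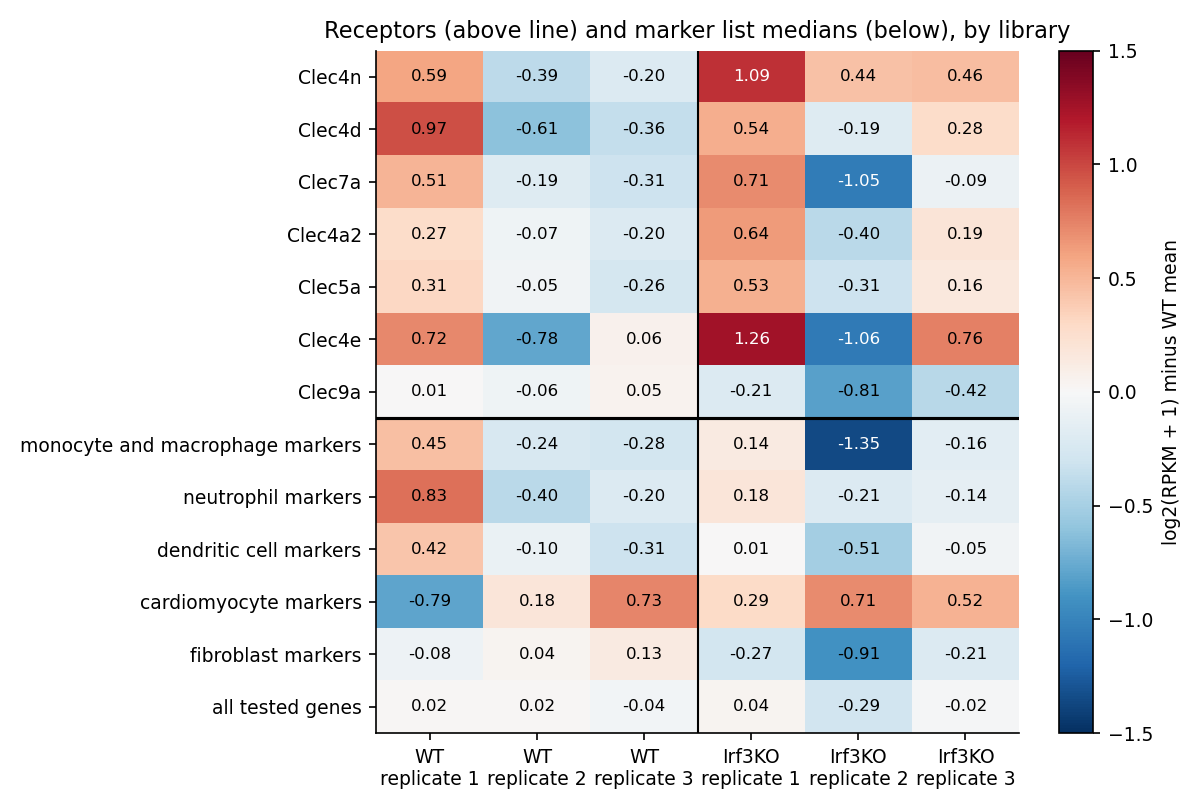
Values of log2(RPKM + 1) minus the WT mean for each receptor (above the thick line) and the median of the same for each marker list (below), by library. The colour scale runs from -1.5 (blue) to 1.5 (red), and the number is printed in each cell. Irf3KO replicate 2 holds the lowest macrophage median, -1.35, while Clec4n is at 0.44 there.

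Each receptor was also set against the macrophage markers of its own library, as log2(RPKM + 1) minus the median of the 20 markers. Clec4n was then at 0.33, 1.75 and 0.41 in Irf3KO and at -0.27, -0.42 and -0.20 in WT. Clec4e was at -2.58, -2.82 and -2.37 against -3.21, -3.90 and -3.02. Clec7a was at -0.66, -0.35 and -0.75 against -0.96, -0.84 and -0.92. For these 3 receptors every Irf3KO library was above every WT library, which was so for 1.01% of all tested genes, for 3 of the 20 macrophage markers themselves and for 0 of 23 other C-type lectin genes. The differences were 1.13, 0.79 and 0.32, each with a two-sided exact permutation p of 0.1, the smallest that 3 against 3 can give (0.23 adjusted over the 7 receptors). Without Irf3KO replicate 2 they were 0.67, 0.90 and 0.20.

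The other 4 overlapped between genotypes on this scale with all libraries. Clec4d, Clec5a and Clec4a2 differed by 0.67, 0.59 and 0.61 (exact permutation p = 0.2 each, 0.23 adjusted) and by 0.30, 0.23 and 0.31 without Irf3KO replicate 2. Clec9a differed by -0.02 (exact permutation p = 1). Which receptors separated depended on the pseudocount, on single libraries and on the reference. With a pseudocount of 0.1 in place of 1, Clec4e overlapped (0.81, exact permutation p = 0.3) and Clec4a2 separated (0.64, exact permutation p = 0.1). Without Irf3KO replicate 1, Clec4d, Clec5a and Clec4a2 also had every Irf3KO library above WT (0.97, 0.85 and 0.82). Clec4d did so without WT replicate 1 (0.88), and Clec5a and Clec4a2 did so without WT replicate 2 (0.69 and 0.70). The share of all genes that separated relative to the macrophage median was not counted for these settings. The separations therefore have no background here and show only that the result moved with the setting. With fewer libraries separation is easier. Before any reference was taken off, 6.61% of all genes were higher without overlap, and 13.3% without Irf3KO replicate 1. Those shares are of plain RPKM, an unlike measure, and are no background for the relative levels (1.01% with all libraries). Against Cd68 alone, no receptor had separate groups, and the differences of Clec4n, Clec4e and Clec7a were 0.37, 0.03 and -0.44 (exact permutation p = 0.2, 0.9 and 0.4). Cd68 was among the 4 of 20 macrophage markers with a log2 fold change above 0, at 0.29 ± 0.39 (limma adjusted p = 0.72). The median of the 20 was -0.44.

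**Figure D4:**
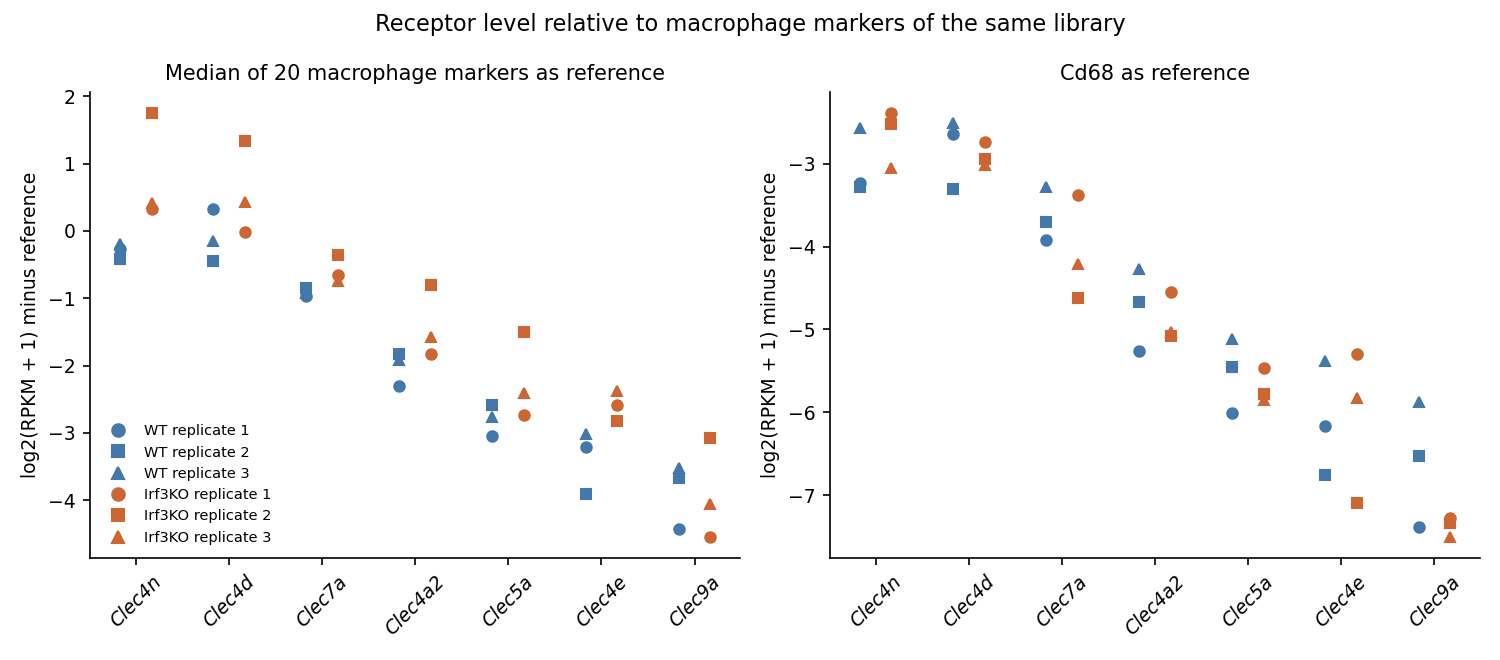
Level of each receptor relative to macrophage markers of the same library, in log2 units, with the median of 20 markers (left) or Cd68 (right) as reference. Each symbol is 1 library, blue for WT and orange for Irf3KO. Left, Clec4n, Clec7a and Clec4e have all Irf3KO points above all WT points, and right, no receptor does.

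Activating receptors were compared with the inhibitory Clec4a2 in the same library. Clec5a kept a nearly fixed distance from it, at -0.81 ± 0.10 in Irf3KO and -0.79 ± 0.06 in WT (SD, n = 3). Clec4n was 2.23 ± 0.29 above Clec4a2 in Irf3KO and 1.71 ± 0.32 above it in WT (difference 0.52, exact permutation p = 0.2, 0.6 adjusted over the 6 receptors). Clec9a was at -2.48 ± 0.22 relative to Clec4a2 in Irf3KO and at -1.86 ± 0.26 in WT, and its groups did not overlap (difference -0.62, exact permutation p = 0.1, 0.6 adjusted). Of all genes 24.4% had such separate, lower values against Clec4a2. The differences of Clec4d, Clec4e, Clec7a and Clec5a were 0.06, 0.18, -0.29 and -0.02 (exact permutation p = 0.9, 0.5, 0.4 and 0.8).

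Apart from Clec5a, the receptors lie in clusters of related genes, which allows a look at their neighbours. In the first, the order along chromosome 6 is Clec4a1, Clec4a3, Clec4a4, Clec4b1, Clec4a2, Clec4b2, Clec4n, Clec4d and Clec4e, the last on the opposite strand. Clec4a3, a relative of Clec4a2, stood at 19.15, 4.46 and 14.32 RPKM in Irf3KO and at 34.41, 25.34 and 23.16 RPKM in WT, without overlap (-1.25 ± 0.45 on the log2 scale, limma adjusted p = 0.55). Of all genes 11.8% were lower without overlap. Clec4a1 was at -0.45 ± 0.33 and Clec4b1 at 0.10 ± 0.18 (adjusted p = 0.569 and 0.783). The 4 receptors described here, from Clec4a2 to Clec4e, were at 0.14 to 0.67. In the other cluster Clec9a and Clec7a stand with Clec2d, Clec12a and Clec1a, which were at 0.18 ± 0.20, -0.16 ± 0.31 and -0.37 ± 0.36 (adjusted p = 0.668, 0.802 and 0.635).

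**Figure D5:**
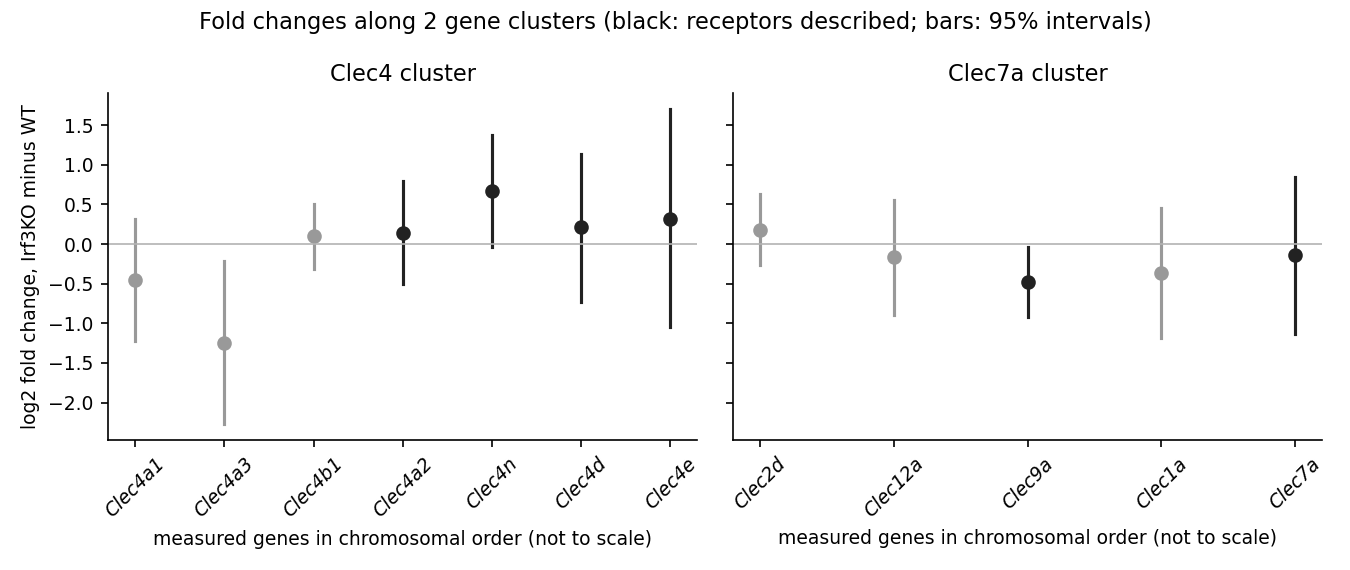
Log2 fold change (Irf3KO minus WT, on RPKM + 1) of the measured genes of both clusters in their order along chromosome 6, with 95% intervals. Black marks the receptors described and grey their neighbours, and distances are not to scale. Clec4a3, at -1.25, lies lowest in the first cluster, and Clec4n, at 0.67, highest.

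Of 41 further C-type lectin genes listed, 23 were in the table, and 0 passed the test in either direction. An unadjusted p under 0.05 was found for 1085 of all 12913 genes and for 5 of these 23. Their median log2 fold change was -0.32, with 17 below 0, and 0.04 without Irf3KO replicate 2. With array weights 2 were called higher and 4 lower, where 22.9% of all genes were called. Besides Clec4a3, the smallest p-values belonged to Cd72, an inhibitory receptor of B cells, at -1.01 ± 0.31, and to Klrd1, a natural killer cell receptor, at -0.48 ± 0.18 (limma adjusted p = 0.434 and 0.556). Cd72 stood at 7.43, 3.0 and 4.83 RPKM in Irf3KO and at 12.20, 12.54 and 7.92 RPKM in WT, without overlap. Of the 23, 4 were lower and 1 higher without overlap, beside 11.8% and 6.61% of all genes.

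The adaptors and signalling genes below the receptors were not called. All 28 were tested, and 0 were called in either direction. An unadjusted p under 0.05 was found for 0 of them, beside 1085 of all 12913 genes. The median of the 28 was -0.12 (-0.01 without Irf3KO replicate 2). With array weights 2 were called higher and 1 lower, where 22.9% of all genes were called. Fcer1g stood at 168.31, 102.76 and 150.94 RPKM in Irf3KO and at 254.99, 152.25 and 125.25 RPKM in WT, so the groups overlapped (log2 fold change -0.30 ± 0.33, limma adjusted p = 0.666). Tyrobp stood at 421.86, 381.31 and 376.99 RPKM against 556.95, 299.72 and 248.83 RPKM (0.18 ± 0.34, adjusted p = 0.80). Syk and Card9 were at -0.04 ± 0.25 and -0.35 ± 0.29 (adjusted p = 0.948 and 0.59). The smallest p-values were those of the NF-kB subunit Rel (-0.62 ± 0.29), Nfkb2 (0.40 ± 0.24) and Malt1, the protease bound to Card9 through Bcl10 (-0.52 ± 0.36), with adjusted p = 0.556, 0.556 and 0.563.

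Genes that these receptors can induce were not called with equal weights. Of 22 listed 13 were in the table and tested, and 0 were called in either direction. An unadjusted p under 0.05 was found for 1085 of all 12913 genes and for 1 of these 13. Their median was -0.22 (-0.03 without Irf3KO replicate 2). With array weights 2 were called higher and 3 lower, where 22.9% of all genes were called. The chemokine Ccl4 was at -0.85 ± 0.30, and Ptgs2, which makes prostaglandins, was at -0.76 ± 0.34 (limma adjusted p = 0.539 and 0.556). Nos2, the inducible nitric oxide synthase, stood at 5.0, 4.81 and 5.65 RPKM in Irf3KO and at 4.42, 3.56 and 2.91 RPKM in WT, without overlap (0.42 ± 0.19, adjusted p = 0.556). Of the 13 genes 1 was lower and 1 higher without overlap, beside 11.8% and 6.61% of all genes. Il1b was at -0.17 ± 0.36 (adjusted p = 0.823).

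Of the marker genes with the smallest p in their lists, the monocyte genes Plac8 and Ly6c2 were at -1.31 ± 0.22 and -1.38 ± 0.32 and the Fc receptor Fcgr1 at -0.98 ± 0.38 (limma adjusted p = 0.0625, 0.203 and 0.556). Mmp9, a gelatinase of neutrophils, was at 1.52 ± 0.46, Csf3r at -0.63 ± 0.34 and Retnlg at -0.96 ± 0.52 (adjusted p = 0.434, 0.556 and 0.556). Of dendritic cell genes Wdfy4, needed for cross-presentation, was at -0.52 ± 0.27, Itgax at 0.61 ± 0.45 and Naaa at -0.28 ± 0.24 (adjusted p = 0.556, 0.571 and 0.596). The neutrophil and dendritic cell lists had medians of -0.23 and -0.18, and of 0.05 and 0.00 without Irf3KO replicate 2. Cardiomyocyte markers had a median of 0.56, with 10 of 10 above 0, and of 0.40 without that library. The sarcomere genes Myl2 and Tnni3 were at 0.95 ± 0.42 and 0.83 ± 0.39, and the natriuretic peptide gene Nppa at 0.72 ± 0.42 (adjusted p = 0.556 each). Fibroblast markers had a median of -0.48 over 8 genes, and of -0.29 without Irf3KO replicate 2. Postn, a matrix protein of activated fibroblasts, was at -1.27 ± 0.39, Pdgfra at -0.82 ± 0.43 and Dcn at -0.66 ± 0.38 (adjusted p = 0.439, 0.556 and 0.556). Endothelial markers had a median of -0.15 over 8 genes, which turned to 0.10 without Irf3KO replicate 2. Tek, Emcn and Pecam1 were at -0.62 ± 0.38, -0.49 ± 0.38 and -0.40 ± 0.39 (adjusted p = 0.556, 0.576 and 0.627). Of 12 lymphocyte markers 2 were tested, Trac at -0.87 ± 0.25 and Cd4 at -0.40 ± 0.15 (adjusted p = 0.403 and 0.556). Among the marker genes named here, Plac8, Ly6c2, Postn, Trac and Cd4 were lower without overlap and Mmp9 higher. Over all genes 11.8% were lower and 6.61% higher without overlap. With all libraries at equal weight 8 unadjusted p-values were under 0.05 among all of these cell type lists, beside 1085 over all 12913 genes. At equal weight limma called 0 genes of these lists. Without WT replicate 1 it called 1 neutrophil marker higher. Array weights, which called 22.9% of all genes, called 4 monocyte and macrophage markers higher and 4 lower. They also called 1 neutrophil, 1 dendritic cell, 1 endothelial and 2 cardiomyocyte markers higher, and 1 fibroblast and 2 lymphocyte markers lower.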

How the data were processed

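RNA was sequenced from infarct tissue of 3 Irf3KO and 3 WT samples. The authors deposited 1 table of RPKM values per gene and library. The submitters' processing notes name STAR 2.3.0, Picard 1.100, SAMtools 0.1.18.0, HTSeq 0.6.0, edgeR 3.8.6 and the build NCBIM37. For settings, strand, multi-mapping reads and any gene filter, these notes say nothing that could be used here. RPKM are not counts, so no count model was used. Of the 12969 genes, 5 names that had been split across cells of the table were rejoined, and 19 names that read as dates were left as they were.

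Depth was estimated from the steps between low values, which lay within 0.2 reads of whole numbers in 100.0% of the values used. The counting errors given for read numbers cover counting only, and the 95% intervals of fold changes come from the spread among libraries. log2(RPKM + 1) was fitted by genotype with limma 3.58.1 in R 4.3.3 (mean-variance trend), over the 12913 genes whose mean reached 1 RPKM. P-values were adjusted by Benjamini-Hochberg, with a threshold of 0.05. As a check of the code only, the fit was also run on simulated data. These had independent noise and no library that stood apart, so they do not show what changes could be called here. Relative levels used two-sided exact permutation tests over the 6 libraries.

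The receptors and gene lists were chosen with earlier results of these data known. Named genes are the 7 receptors, the 3 smallest p-values of each list, Fcer1g, Tyrobp, Syk and Card9, and the 3 genes most correlated with each receptor. Others (Clec4a1, Clec4b1, Clec2d, Clec12a, Clec1a, Il1b, Lyz2 and Cd68) were added as neighbours or examples after their values were seen. Promoters came from RefSeq (GRCm38.p6) and gene order from GENCODE. Alternatives were pseudocounts of 0.1 and 0.5, no filter or a mean of 2 RPKM, median-of-ratios scaling, no trend, array weights, a replicate block and leaving out each library. Array weights used the gene-by-gene method, since the default did not converge.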

Additional observations from a re-analysis of the deposited data

How the results depend on the processing

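With 3 libraries a group and adjustment over all genes, 0 of the 7 receptors were called, and this held under other pseudocounts, no filter, other scaling, without the trend and with 1 library left out. The filter at a mean of 2 RPKM tested 6 receptors, without Clec9a, and called 0. Array weights called 3 higher and 1 lower, with log2 fold changes of 0.77 for Clec4d, 1.35 for Clec4e, 0.83 for Clec4n and -0.36 for Clec9a, and turned Clec7a to 0.16. The cause was not tested. Over all genes 65 were called, 2960 with array weights and 21 to 97 with 1 library left out. Deviations from the group means correlated at 0.129, -0.098 and -0.102 for same-numbered samples and at -0.212 to 0.19 for the other pairs. With 3 libraries a group, whose deviations add up to 0, such values cannot settle whether the numbers pair the samples. The replicate block called 250 genes and 0 receptors (limma adjusted p = 0.319 for Clec4n). The block called 2 other C-type lectin genes and 2 monocyte and macrophage markers lower and 1 neutrophil marker higher.

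With 1 library left out, log2 fold changes ran from -0.10 to 0.69 for Clec4d, -0.15 to 1.01 for Clec4e, 0.45 to 0.96 for Clec4n, -0.57 to 0.31 for Clec7a, -0.08 to 0.34 for Clec5a, -0.11 to 0.42 for Clec4a2 and -0.61 to -0.31 for Clec9a. Receptors higher without overlap numbered 0 to 2. Relative to macrophage markers Clec9a ran from -0.42 to 0.31. Cd68 in their place turned Clec4d to -0.09, Clec7a to -0.44, Clec5a to -0.17 and Clec4a2 to -0.15. Relative to Clec4a2, leaving out 1 library gave -0.21 to 0.41 for Clec4d, -0.18 to 0.59 for Clec4e and -0.07 to 0.03 for Clec5a.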
